A study of Xenopus laevis with 4 samples.

Results

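The genes described here encode the parts of microtubules and cilia: the tubulins, the dyneins and dynactin, the proteins of ciliary transport and of the ciliary axoneme, and a few proteins that sever microtubules or bind their ends or the free tubulin. They were chosen by name. A probeset (the group of short probes that reads 1 transcript on an Affymetrix array) was taken where it carried a single gene symbol that begins as those of the tubulin (tub), axonemal dynein (dnah, dnai, dnal), cytoplasmic dynein (dync, dynl), dynactin (dctn), intraflagellar transport (ift), Bardet-Biedl (bbs), tektin (tekt), stathmin (stmn), end-binding protein (mapre), katanin (katn), radial spoke (rsph) and cilia- and flagella-associated protein (cfap) genes do. This gave 92 of the 15491 probesets tested. They read 62 genes, or 74 when the L and S copies that the *Xenopus laevis* genome keeps of many genes are counted apart. The symbol foxj1, a master regulator of motile cilia, was also in the rule, but 0 probesets carried it.

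Microtubules are hollow polymers of alpha- and beta-tubulin that grow from rings of gamma-tubulin, form the mitotic spindle and serve as tracks along which cytoplasmic dynein, with its activator dynactin, carries cargo towards the minus end. Nearly every vertebrate cell can also build a single non-motile primary cilium, which is assembled by intraflagellar transport and in which Hedgehog signals are received in the limb bud. Motile cilia carry in addition rows of axonemal dyneins, radial spokes and tektins; in tadpoles they are a feature of the multiciliated cells of the epidermis and of other ciliated epithelia.

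All 4 arrays were made from hind limbs of *X. laevis* tadpoles amputated at the future ankle at Nieuwkoop and Faber (NF) stage 52, and each array read 1 pool of tissue from 20 limbs, taken 3 days after amputation. The WT blastema group (n = 2 pools) came from wild-type siblings, which build a regenerating blastema. The N1 pseudoblastema group (n = 2 pools) came from tadpoles of a line that descends from 1 founder with a single insertion, in which the Hsp70 heat-shock promoter drives the coding sequence of Noggin, a secreted inhibitor of BMP ligands, while a linked lens γ-crystallin promoter drives GFP. All tadpoles of both groups were heat shocked for 30 minutes at 34°C, 3 hours before and 24 and 48 hours after amputation, so that the treatment was shared and the transgene was not. The comparison asks which genes differ between a stump that can regenerate and one that cannot.

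As a check of the labels, the EGFP control probeset read 16.1 and 29.4 in WT against 123 and 108 in N1, whereas the Noggin probeset (nog.L) read 91.8 and 95.5 on the WT arrays and 75.6 and 52.2 on the N1 arrays. Whether the Noggin probes lie in the part of the transcript that the transgene carries is not known here, so that probeset checks nothing. Signals are MAS5 intensities in linear arbitrary units, scaled by the authors to a common trimmed mean. The median signal of an array was between 157 and 175, and its 25th percentile between 39.7 and 53.9, the highest of both being on the array of N1 replicate 1. A probeset's level below is its mean log2 signal over the 4 arrays. The median level of all probesets corresponds to a signal of 165 and the 25th percentile to 39.3. Detection calls were not used here, so that signals at the low end may hold no transcript at all, and levels of different probesets are not compared because each responds to its transcript in its own way. In pooled tissue, fewer cells of a type and less RNA per cell cannot be told apart.

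No microtubule or cilium gene separated the groups beyond the threshold set for the whole array. In the limma fit, with p-values adjusted after Benjamini and Hochberg over the whole array, 0 of the 92 probesets passed an adjusted p of 0.05 in either direction, the smallest being 0.179. Over all probesets 2 passed as higher in WT (0.0129%) and 17 as higher in N1 (0.11%). Before adjustment, a limma p under 0.05 was reached by 2 of the 92 as higher in WT and by 5 as higher in N1, where the background over all probesets was 4.29% and 6.82%. The balance of these counts depended on the scaling of the arrays. After median centring 8 of the 92 had such a p as higher in WT and 3 as higher in N1, while the counts over all probesets went from 664 in WT and 1057 in N1 to 1028 and 762. Without N1 replicate 2 the members with such a p were 7 in WT and 10 in N1, in a fit that gave 1263 and 1475 over all probesets. By the ratio of mean signals, 8 were over 1.5-fold higher in WT (background 9.1%) and 18 in N1 (background 19.0%). A total of 38 of the 92 leaned towards WT (background 44.1%) and 54 towards N1 (background 55.9%). The median log2 difference of WT minus N1 was -0.08 over the 92 probesets and -0.07 over all probesets.

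With 2 arrays a group, a simpler description is whether both arrays of a group lay above both of the other. An exact permutation test of such a single difference cannot give a two-sided p below 0.333, so that non-overlap by itself is no call. Both WT arrays were the higher ones in 15 of the 92 probesets (background 17.9%) and both N1 arrays in 28 (background 24.2%). The 92 probesets were evenly spread over the range of level, 46 of them being at or above the median and 24 in the dimmest 25%. Of the 46 at or above the median level, 23 leaned each way (background 50.5% towards WT and 49.5% towards N1), with a median log2 difference of -0.00292. Both WT arrays were the higher ones in 12 of these 46 (background 24.1%) and both N1 arrays in 8 (background 23.2%), and a limma p under 0.05 before adjustment was reached by 2 as higher in WT (background 7.02%) and by 1 as higher in N1 (background 8.31%). Of the 46 dimmer ones 15 leaned towards WT (background 37.7%) and 31 towards N1 (background 62.3%), with a median of -0.40, where the median of all probesets below the median level was -0.20. In 20 of these dimmer ones both N1 arrays lay on top and in 3 both WT arrays, where the background among dim probesets was 25.3% and 11.7%. The axoneme and the cytoplasmic microtubules are described in turn.

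**Figure D1:**
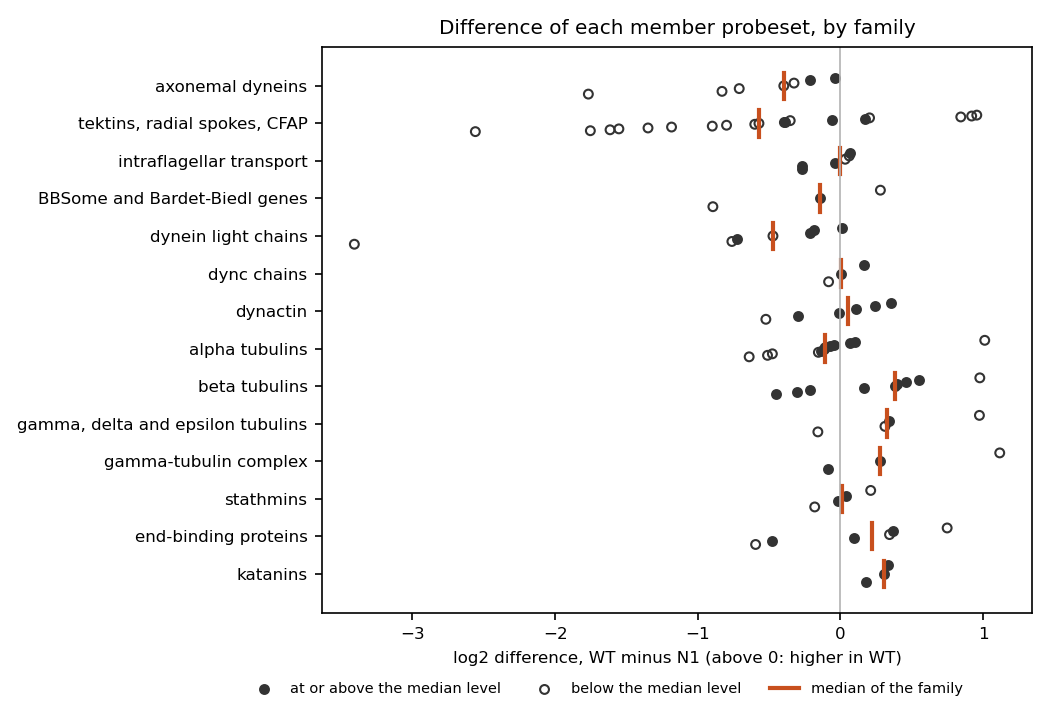
Log2 difference of WT minus N1 for each of the 92 probesets, by family. Each circle is 1 probeset, filled where its level reaches the median over the array and open where it does not, and the orange bar is the family's median. The 7 axonemal dynein probesets all lie left of 0 (6 do after quantile normalisation or median centring), the beta tubulins lie on both sides of it with a median of 0.38, and the widest spread is among open circles.

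Of the axonemal, ciliary transport and cytoplasmic groups, that of the motile axoneme was the most one-sided. They were read by 26 probesets of 17 genes, of which 21 had a level below the median and 11 lay in the dimmest 25%. A total of 21 of the 26 leaned towards N1, against 55.9% of all probesets and 62.3% of those below the median level. Both N1 arrays lay above both WT arrays in 16 (61.5%), against 24.2% of all probesets and 25.3% of those below the median level. Only cfap20.L, with its probeset ending in S1_a_at, had both WT arrays above. Of the 17 genes, 15 leaned towards N1 with every probeset as deposited (cfap298 and a probeset of dnal4 turned after quantile normalisation or median centring), cfap20 leaned towards WT with all 3 and cfap45 was split. The median log2 difference was -0.48, which corresponds to higher signals in N1. A limma p under 0.05 before adjustment was reached by 3 of the 26, all as higher in N1 and below the median level (background 5.33% there), and by 0 after adjustment.

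Axonemal dyneins, the motors that bend motile cilia, were read by 7 probesets. All 7 leaned towards N1 as deposited (background 55.9%), 6 of them also after quantile normalisation or median centring. The intermediate chain of the outer arm, dnai1.L, had signals of 108 and 98.9 in WT against 209.6 and 161 in N1. Its mean was 103 ± 6.32 (SD, n = 2) in WT and 185 ± 34.6 (SD, n = 2) in N1, 1.79-fold higher in N1, with a log2 difference of -0.83 ± 0.34 (SE) and a limma adjusted p of 0.422. Both N1 arrays were thus well above both WT arrays. The intermediate chain dnai4.S read 53.0 and 92.1 in WT and 113 and 116 in N1, and the inner arm light intermediate chain dnali1.S read 57.7 and 71.0 in WT and 96.1 and 74.0 in N1. Neither pair of groups overlapped, although for dnali1.S the nearest arrays were almost level.

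The outer arm heavy chain dnah9.S was read by a pair of very dim probesets. The one ending in S1_at had signals of 10.1 and 2.84 in WT against 16 and 20.7 in N1, and the one ending in A1_at had 19.8 and 34.8 in WT and 48.6 and 22.3 in N1. Only the first separated the groups. The dynein light chain dnal4.S was the one axonemal dynein gene with probesets at or above the median level. The one ending in S1_a_at read 993 and 970.1 in WT and 1270.2 and 1016 in N1, a log2 difference of -0.21 ± 0.20 (SE). Its other probeset read 238 and 228 in WT and 296 and 194 in N1, so that the groups overlapped, and its direction turned under both quantile normalisation and median centring.

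Tektins, which form filaments in the wall of the doublet microtubules, had both N1 arrays above both WT arrays in 4 of 4 probesets (background 24.2%). The tekt4.S probeset read 8.32 and 16.6 in WT and 79.4 and 60.6 in N1. This was a mean of 12.5 ± 5.88 (SD, n = 2) in WT against 70.0 ± 13.3 (SD, n = 2) in N1, a 5.61-fold ratio with a log2 difference of -2.56 ± 0.65 (SE) and a limma adjusted p of 0.204. The WT signals were below the 25th percentile of their arrays and the N1 signals were above it. The tekt1.L probeset had closely matched replicates, 79.5 and 72.2 in WT and 114 and 112 in N1, a 1.48-fold ratio with a limma adjusted p of 0.63. Both copies of tekt2 were very dim: tekt2.S read 5.33 and 4.60 in WT and 15.6 and 17.9 in N1, and tekt2.L read 20.0 and 3.27 in WT and 22.8 and 24.7 in N1. The L copy's non-overlap thus rested on a gap of a few units between WT replicate 1 and the N1 arrays.

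Radial spokes connect the outer doublets with the central pair of microtubules. Both N1 arrays lay above both WT arrays in 3 of their 4 probesets (background 24.2%), numbers too small to read against that share. The rsph3.L probeset read 20.7 and 23.8 in WT and 63.8 and 50.1 in N1, 2.56-fold higher in N1 with a log2 difference of -1.35 ± 0.56 (SE) and a limma adjusted p of 0.426. The spoke head gene rsph9.L had a pair of probesets, the brighter reading 151 and 222 in WT and 323 and 177 in N1, the dimmer 41.6 and 74.3 in WT and 136 and 78.7 in N1. Both leaned towards N1, but for both it was N1 replicate 1 that stood high, and the brighter one turned its direction without that array. Another spoke head gene, rsph1.L, was close to the bottom of the scale, with 5.14 and 3.82 in WT and 25.3 and 7.28 in N1.

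The cfap genes form a mixed group by name rather than by place. Both N1 arrays were on top in 4 of their 11 probesets, numbers too small to read against the background of 24.2%. Of the proteins bound inside the doublet microtubules, cfap52.S read 28.7 and 20.8 in WT and 34.7 and 52.0 in N1, cfap161.L read 6.09 and 5.59 in WT and 18.2 and 9.66 in N1, and the 3 probesets of cfap45 did not agree in direction. The L copy of cfap52 read 44.8 and 64.5 in WT and 91.9 and 51.3 in N1. Its groups overlapped and its direction turned without N1 replicate 1. The brightest cfap probeset, cfap20.L ending in S1_at, read 497 and 418 in WT and 514 and 317 in N1, a log2 difference of 0.17 ± 0.29 (SE) with overlapping groups. That gene, which belongs to the inner junction of the doublets, therefore did not share the lean of the others. The cfap298.L probeset, for a protein needed to assemble dynein arms, read 238 and 255 in WT and 249 and 265 in N1.

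**Figure D2:**
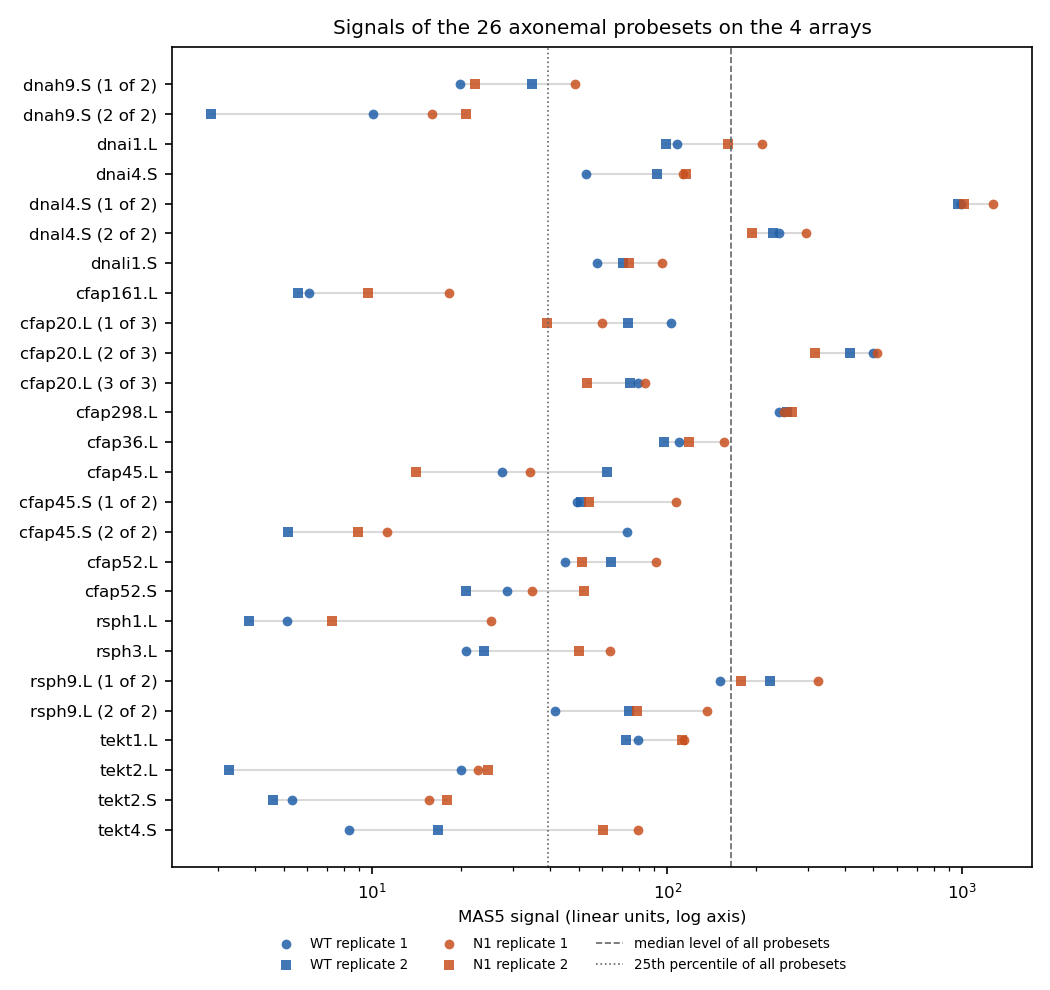
MAS5 signal of the 26 axonemal probesets on each of the 4 arrays, on a log axis, with WT and N1 replicates as separate points. Dashed and dotted lines mark the median level (165) and the 25th percentile (39.3) of all probesets; both N1 arrays lie right of both WT arrays in 16 rows, of which 15 are of probesets below the median level.

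The axonemal lean towards N1 was mostly found among dim probesets, and the array of N1 replicate 1 contributed much of it. Relative to each probeset's own mean, the median log2 signal of the 26 probesets was -0.27 and -0.20 on the WT arrays and 0.49 and 0.01 on the N1 arrays. All probesets below the median level gave -0.04 and -0.09 on the WT arrays and 0.28 and -0.01 on the N1 arrays, so that N1 replicate 1 read dim probesets high in general. Without N1 replicate 1 the axonemal median was -0.20, and without N1 replicate 2 it was -0.73. The 5 axonemal probesets at or above the median level had a median of -0.06, the 15 at or above the 25th percentile -0.39 and the 11 dimmest -1.35. All probesets in the dimmest 25% had a median of -0.33. After quantile normalisation 12 of the 26 still had both N1 arrays on top, where the background was 19.3% of all probesets and 17.7% of the dimmer ones. After median centring 13 did, with a background of 18.6% and 21.0%.

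**Figure D3:**
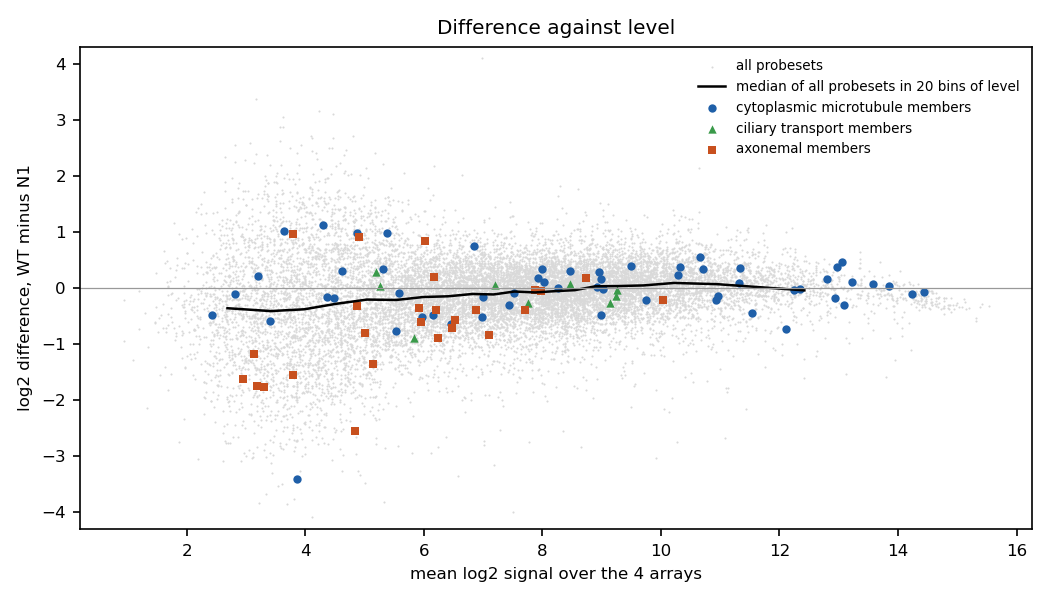
Log2 difference of WT minus N1 (vertical axis) against the mean log2 signal over the 4 arrays (horizontal axis). Grey points are all 15491 probesets, the black line is their median in 20 bins of level, and coloured points are the axonemal, ciliary transport and cytoplasmic members; the black line runs below 0 at low levels, at -0.36 in the dimmest bin, and the axonemal points have a median of -0.48.

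Markers of multiciliated cells leaned the same way. Of a list of 14 such genes, 7 were measured by 9 probesets, of which 6 are themselves among the 26 axonemal ones. All 9 were below the median level and leaned towards N1 (background 62.3% there), and 6 had both N1 arrays above both WT arrays (background 25.3% there). Their summed signal was 432 and 368 on the WT arrays and 701 and 584 on the N1 arrays. The 3 outside the axonemal group were rfx2.S, ccno.L and spag6.L, of which only rfx2.S separated the groups. The rfx2.S probeset, for a transcription factor of ciliated cells, read 36.2 and 50.1 in WT and 75 and 87.9 in N1. The cyclin O gene ccno.L, which acts in centriole amplification, read 128 and 97.4 in WT and 177 and 101 in N1. The central pair gene spag6.L read 25.4 and 3.95 in WT and 23.5 and 36.7 in N1. Markers of other tissues were uneven as well. Epidermal markers leaned towards N1 in 8 of 10 probesets (background 55.9%), with summed signals of 3688 and 2921 in WT against 5513 and 5411 in N1. Of the 2 that leaned towards WT, krt19.S read 616 and 470 in WT and 219 and 207 in N1. Skeletal muscle markers leaned towards N1 in 11 of 12, with sums of 1854 and 1839 against 3075 and 2216, the highest being on N1 replicate 1. Of these 12, 11 were below the median level, where the background was 62.3%. Red cell markers leaned towards N1 in 5 of 6 (background 55.9%), with sums of 15443 and 12222 against 35261 and 48554. Markers of limb mesenchyme had sums of 21017 and 20197 in WT against 24198 and 18904 in N1. These sums came mostly from the collagen genes col1a1 and col1a2, and 7 of the 12 probesets were below the median level. The part of the cell types sampled in the axonemal values was not tested.

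A wider list of 12 measured genes for axoneme assembly and structure, none of them among the 92, gave 11 of 13 probesets leaning towards N1 and a median log2 difference of -0.55. Of all probesets below the median level 62.3% leaned so, with a median of -0.20. After quantile normalisation 9 of the 13 leaned towards N1 with a median of -0.27, and without N1 replicate 1 there were 8 with a median of -0.12. The gene spag6.L of this list is also among the multiciliated markers. All 13 were below the median level and 10 in the dimmest 25%. Both N1 arrays were on top in 4 and both WT arrays in 2, shares (30.8% and 15.4%) near the background of 25.3% and 11.7% among dim probesets. The meiosis and cilium gene meig1.S had the smallest limma p before adjustment, 0.0289 (adjusted 0.388), with signals of 49.6 and 3.86 in WT against 75 and 123 in N1. Under a heading of multiciliated cell programme, 7 probesets gave both WT arrays on top in 3 and both N1 arrays in 1, where the background among dim probesets was 11.7% and 25.3%. Of the 7, 3 leaned towards WT and 4 towards N1, and 4 lay in the dimmest 25%. The 3 with WT on top were e2f4.S, foxn4.S and ccdc78.S, all in the dimmest 25%. The e2f4.S probeset, for a cell cycle transcription factor that multiciliated cells also use, read 55.1 and 66.6 in WT and 6.36 and 19.0 in N1. Its limma adjusted p was 0.267. For foxn4.S the signals were 54.6 and 51.4 in WT and 39.8 and 11.0 in N1, and for ccdc78.S 10.2 and 16.4 in WT and 9.53 and 8.59 in N1. The probeset with N1 on top was rfx2.S, which, like ccno.L, is also among the multiciliated markers above.

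Ciliary transport genes, which both motile and primary cilia need, were closer to balance. Their 9 probesets leaned towards WT in 4 and towards N1 in 5, with a median log2 difference of -0.04 and no limma p under 0.05 before adjustment (0 in either direction). Both N1 arrays were on top in 3 of 9 (33.3%, background 24.2%). The IFT-B subunit ift57.S read 524 and 705 in WT and 608 and 639 in N1, a log2 difference of -0.04 ± 0.23 (SE). Another IFT-B subunit, ift20.L, read 579 and 457 in WT and 604 and 635 in N1, and ift80.L read 187 and 209.9 in WT and 256 and 223 in N1. These last ones did not overlap, whereas ift22.S, ift27.L and ift46.S did, with log2 differences between 0.03 and 0.07.

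The BBSome is a coat that moves membrane proteins into and out of cilia. Its subunit bbs5.L read 514 and 653 in WT and 574 and 715 in N1, a log2 difference of -0.14 ± 0.23 (SE) with interleaved arrays. Of the chaperonin-like proteins that assemble the BBSome, bbs10.L read 48.8 and 35.5 in WT and 76.7 and 78.2 in N1, and bbs12.L read 33.6 and 48.6 in WT and 53.2 and 20.8 in N1. The bbs10.L groups were apart and had a limma adjusted p of 0.539. A list of 23 measured genes of the transition zone, basal body and centrosome, the structures from which cilia grow, gave 7 of 27 probesets with both N1 arrays on top (25.9%) and 4 with both WT arrays on top (14.8%), shares close to those of all probesets.

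Cytoplasmic microtubule genes, with 57 probesets of 36 genes, divided evenly as deposited: 29 leaned towards WT and 28 towards N1 (background 44.1% and 55.9%), with a median log2 difference of 0.00. After quantile normalisation and after median centring alike, 36 leaned towards WT and 21 towards N1. These scalings also moved the whole array towards WT. The median log2 difference over all probesets went from -0.07 to 0.02 after quantile normalisation and to 0.04 after median centring. Both WT arrays were on top in 14 (24.6%, background 17.9%) and both N1 arrays in 9 (15.8%, background 24.2%). Before adjustment 2 had a limma p under 0.05 in each direction (background 4.29% in WT and 6.82% in N1). After median centring 8 had such a p as higher in WT and 2 as higher in N1. Over all probesets these counts went from 664 and 1057 to 1028 and 762. Beta-tubulin isotypes leaned different ways.

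Beta-tubulins were read by 9 probesets, 8 of them above the median level. Both WT arrays were on top in 5 and both N1 arrays in 2, where the background at or above the median level was 24.1% and 23.2%. The tubb.L probeset ending in S1_at read 9122 and 10946 in WT and 6933 and 7627 in N1, a mean of 10034 ± 1290.1 (SD, n = 2) against 7279.7 ± 491 (SD, n = 2). This was 1.38-fold higher in WT, with a log2 difference of 0.46 ± 0.18 (SE), a limma p of 0.0321 and an adjusted p of 0.399. A further probeset of the same gene read 8828 and 9445 in WT and 6199 and 7910.3 in N1, a log2 difference of 0.38 ± 0.19 (SE). Both tubb.L probesets therefore had WT on top.

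The isotype tubb4a.S gave the lower p of the WT-leaning members. Its probeset ending in S1_at read 1911 and 2001 in WT and 1183 and 1509 in N1, 1.45-fold higher in WT, with a log2 difference of 0.55 ± 0.20 (SE), a limma p of 0.0214 and an adjusted p of 0.352. Its brighter probeset, ending in S1_a_at, read 7220.3 and 7977 in WT and 7032 and 6537 in N1, a log2 difference of only 0.16 ± 0.17 (SE). The groups were apart in both, but the size of the difference was not the same. The tubb6.S probeset read 799 and 860.4 in WT and 690.0 and 576 in N1, a log2 difference of 0.40 ± 0.21 (SE) with WT again on top.

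The isotype tubb4b, which in mammals is the beta-tubulin of ciliary axonemes but is also widely expressed, leaned the other way with both of its copies. The L copy read 8040.3 and 7662 in WT and 10604 and 8831 in N1, a log2 difference of -0.30 ± 0.18 (SE) and a limma adjusted p of 0.575. The S copy read 2464 and 2607 in WT and 4412 and 2732 in N1, a log2 difference of -0.45 ± 0.24 (SE) and a limma adjusted p of 0.533. Both N1 arrays were above both WT arrays for each copy, although N1 replicate 2 was only just above for the S copy. Without N1 replicate 2 the S copy had a log2 difference of -0.80 and a limma adjusted p of 0.0353, the single passing value among the 92 in any setting tried. That fit leaves N1 with 1 array, which is assumed to vary as the WT pair does, and its adjusted calls over all probesets were 178 in WT and 156 in N1, against 2 and 17 with all arrays.

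The directions of tubb, tubb4a, tubb6 and tubb4b were the same after quantile normalisation and after median centring. Of the remaining isotypes, tubb2b.S read 729.6 and 874 in WT and 1071 and 797 in N1, and the neuronal tubb3.L read 46.7 and 72.8 in WT and 58.4 and 15 in N1, both with overlapping groups. Neuron and axon markers, tubb3.L included, were mixed, with 8 of 15 probesets leaning towards WT and 7 towards N1. Of these 15, 13 were below the median level, where the background was 37.7% towards WT and 62.3% towards N1.

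Alpha-tubulins showed no separation among their 6 probesets at or above the median level. The tuba5.S probeset ending in S1_at read 20307 and 22808 in WT and 27474 and 18620.1 in N1, with both N1 arrays outside the WT range on opposite sides and a log2 difference of -0.07 ± 0.22 (SE). The tuba1c.S probeset ending in S2_at read 12243 and 12640.3 in WT and 10423 and 13506 in N1. Of the 12 alpha-tubulin probesets, 9 leaned towards N1 as deposited, but 5 did after quantile normalisation and 6 after median centring, so that the family had no settled direction. The 3 with non-overlapping groups were dim ones of tuba1cl.3.L and tubal3.1.S. Tubulin genes resemble each other closely in sequence, and 7 of the 92 probesets carry the ending x_at, which marks probes that can match further transcripts, so that signal of paralogues may be mixed in them.

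**Figure D4:**
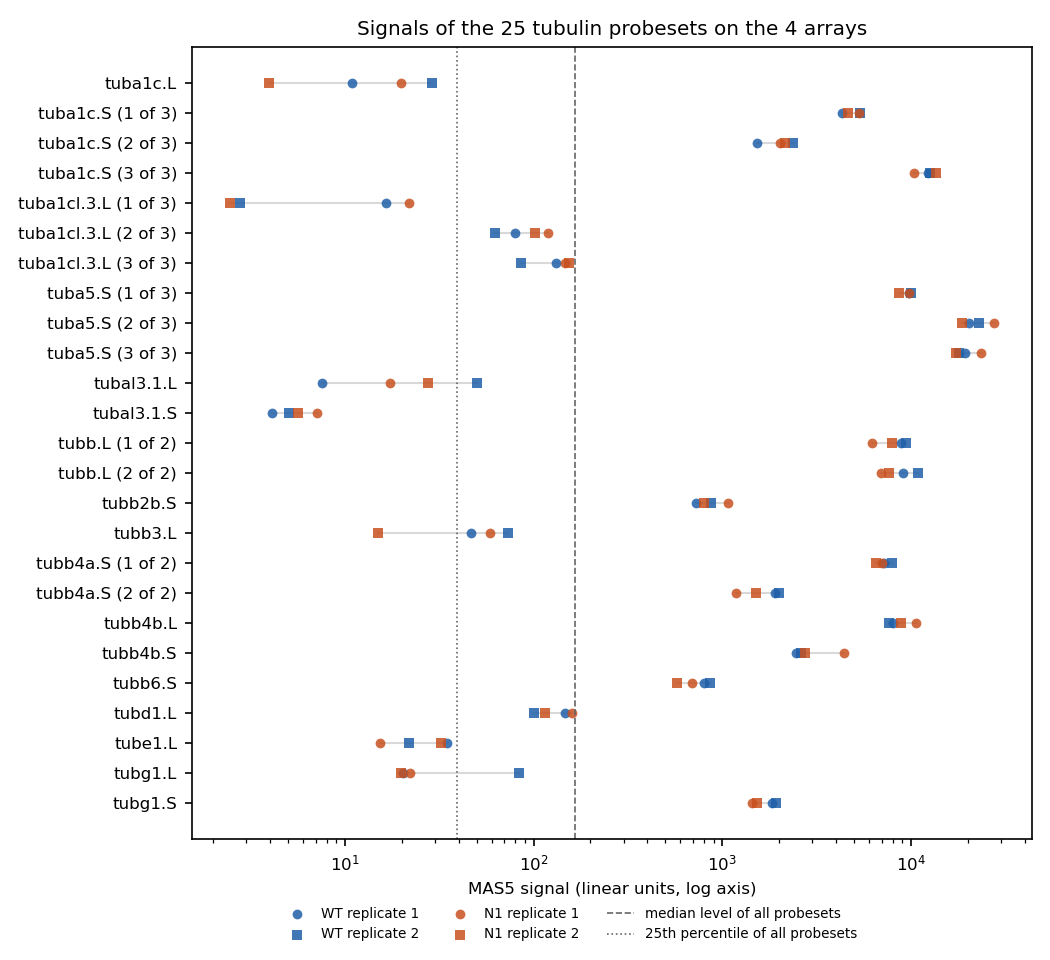
MAS5 signal of the 25 probesets of the alpha, beta, gamma, delta and epsilon tubulins on each of the 4 arrays, on a log axis, with WT and N1 replicates as separate points and the median level and 25th percentile of all probesets as lines. Among the beta tubulins, both WT arrays lie right of both N1 arrays for tubb.L, tubb4a.S and tubb6.S, and left of them for tubb4b.L and tubb4b.S. Among the others they lie right for tubg1.S, and left for tubal3.1.S and the tuba1cl.3.L probesets ending in x_at.

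Gamma-tubulin and its ring complex nucleate microtubules at centrosomes and basal bodies. The tubg1.S probeset read 1837 and 1922 in WT and 1442 and 1531 in N1, 1.26-fold higher in WT with a log2 difference of 0.34 ± 0.18 (SE) and a limma adjusted p of 0.53. The L copy, in the dimmest 25%, read 20.3 and 83.2 in WT and 22.1 and 19.8 in N1. Its groups overlapped and its direction turned without WT replicate 2. Of the ring complex genes, tubgcp3.S read 564 and 528 in WT and 357 and 566 in N1, tubgcp2.L read 33.4 and 25.4 in WT and 10.1 and 17.9 in N1, and tubgcp6.L read 161 and 199 in WT and 187 and 193 in N1. Replicates of tubg1.S were close together and its groups were apart, whereas the groups overlapped for tubgcp3.S and tubgcp6.L. The delta- and epsilon-tubulins tubd1.L and tube1.L, which centrioles need for their triplet microtubules, both overlapped, with log2 differences of -0.16 and 0.31.

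Dynein light chains held the member with the smallest p. Of their 7 probesets 6 leaned towards N1 (background 55.9%), with a median log2 difference of -0.47. After quantile normalisation and after median centring 6 still did, with medians of -0.31 and -0.36. Both N1 arrays were on top in 2 of the 7 (background 24.2%). The roadblock light chain dynlrb2.S read 5.92 and 3.36 in WT and 54.7 and 40.9 in N1, a mean of 4.64 ± 1.81 (SD, n = 2) against 47.8 ± 9.75 (SD, n = 2). The ratio of the means was 10.3, with a log2 difference of -3.41 ± 0.80 (SE), a limma p of 0.00241 and an adjusted p of 0.179. The WT signals lay far down in the dimmest 25%, where the ratio is poorly defined. After adding 64 to every signal before log2 the difference shrank to -0.70, with a limma adjusted p of 0.206.

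The LC8 light chain dynll1, which also binds many proteins apart from dynein, was read by 3 probesets that did not match each other. The dimmer dynll1.S probeset read 3724 and 3161 in WT and 5087 and 6349 in N1, 1.66-fold higher in N1 with a log2 difference of -0.73 ± 0.19 (SE), a limma p of 0.00455 and an adjusted p of 0.214. It was the only member at or above the median level with a limma p under 0.05 in the N1 direction. The brighter dynll1.S probeset read 7066 and 7658 in WT and 10621 and 6568 in N1, with a log2 difference of -0.18 ± 0.24 (SE) that turned without N1 replicate 1, and dynll1.L read 460.2 and 520.3 in WT and 411 and 574 in N1. Neither of these separated the groups. The Tctex light chain dynlt1.L read 1576 and 2092 in WT and 1895 and 2329.6 in N1.

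Of the motor's larger parts, the light intermediate chain dync1li1.L read 609 and 475 in WT and 372 and 619.8 in N1, a log2 difference of 0.16 ± 0.29 (SE), and the S copy had a log2 difference of 0.00. Of dynactin, dctn1.L, which encodes the p150Glued subunit that binds both dynein and the microtubule, read 2892 and 2921 in WT and 2179.8 and 2381 in N1, 1.27-fold higher in WT with a log2 difference of 0.35 ± 0.17 (SE), a limma p of 0.0716 and an adjusted p of 0.504. The dynamitin gene dctn2.L read 1281 and 1455 in WT and 1151 and 1159 in N1. WT was on top for both, but the S copy of dctn2, with 512 and 529 in WT and 628 and 437 in N1, overlapped. The dynactin family as a whole had 3 probesets leaning each way. The dctn6.L probeset had N1 on top, with 143 and 169.8 in WT and 192 and 189.9 in N1, and dctn3.S leaned towards N1 by -0.52 on the log2 scale with overlapping groups. Among 18 probesets of dynein regulators and adaptors, only those of nudc, whose product works with dynein and as a co-chaperone, had a limma p under 0.05: nudc.S read 1445 and 1652 in WT and 663 and 929 in N1 (adjusted p = 0.166), and nudc.L read 2296 and 2039 in WT and 1078 and 1490.3 in N1 (adjusted p = 0.23).

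End-binding proteins track the growing ends of microtubules, and of their 6 probesets 3 had both WT arrays on top and 1 both N1 arrays, numbers too small to read against the background of 17.9% and 24.2%. EB1 had WT on top with both copies: mapre1.L read 1376 and 1555 in WT and 1125 and 1139.7 in N1, and mapre1.S read 2630.4 and 2656 in WT and 2478 and 2479 in N1. The difference of the S copy, 0.09 ± 0.17 (SE) on the log2 scale, was small but its replicates were nearly identical. The EB3 probeset mapre3.S ending in A1_at read 155 and 145 in WT and 96.3 and 82.7 in N1, and EB2 leaned the other way in its brighter probeset, mapre2.S ending in A1_at, with 403 and 464 in WT and 626 and 583 in N1 and a limma adjusted p of 0.473. The dimmer probesets of mapre2.S and mapre3.S leaned opposite to these and overlapped.

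Katanin severs microtubules. Its catalytic subunit katna1.S read 293 and 283 in WT and 240.2 and 217 in N1, and the katanin-like katnbl1.L, in its brighter probeset, read 426 and 360.1 in WT and 282 and 358 in N1, the latter a log2 difference of 0.30 ± 0.26 (SE). All 3 katanin probesets, 2 of them of katnbl1.L, leaned towards WT, and both WT arrays were on top in 2. The background at or above the median level was 50.5% and 24.1%, against which numbers this small cannot be read. For katnbl1.L the nearest arrays, 360.1 in WT and 358 in N1, were almost level. Stathmin binds free tubulin dimers and is abundant in dividing cells. The stmn1.S probeset read 15032 and 14954 in WT and 14044 and 15211 in N1, a log2 difference of 0.04 ± 0.17 (SE), and stmn1.L read 5177 and 5125 in WT and 5049 and 5400.4 in N1. Neither copy differed beyond the spread of its replicates. Markers of dividing cells, stmn1 included, had 13 of 20 probesets leaning towards WT. Of these 20, 18 were at or above the median level, where the background was 50.5%. Their summed signals were 56360 and 56778 in WT against 51840 and 53420 in N1.

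Of the companion groups of genes, the one that stood furthest towards WT was the machinery that folds tubulin. The cytosolic chaperonin CCT folds tubulin and actin from chains that prefoldin hands to it. Of 24 probesets of 13 CCT, prefoldin and related genes, 21 leaned towards WT, with a median log2 difference of 0.36. Both WT arrays were on top in 16 (66.7%) and both N1 arrays in 0. At or above the median level, where 22 of the 24 lay, 50.5% of all probesets leaned towards WT. The background there was 24.1% with WT on top and 23.2% with N1 on top. A limma p under 0.05 before adjustment was reached by 8, all higher in WT, where the background at or above the median level was 7.02%, and an adjusted p under 0.05 by 0. The tcp1.L probeset, for a CCT subunit, read 6565 and 7244 in WT and 2702 and 3955 in N1, a log2 difference of 1.08 and a limma adjusted p of 0.119. Over the fits without 1 array the median log2 difference of the list lay between 0.314 and 0.435. Over all probesets it lay between -0.149 and -0.0168 in those fits. With the replicate number as a block, 1 probeset of the list passed a limma adjusted p of 0.05 as higher in WT. Over all probesets 57 passed in that direction with the block, against 2 without it. The list belongs to a topic that was already known to differ on these arrays, so that it is no independent evidence. Tubulin folding cofactors, which act on tubulin after CCT, were measured for 3 genes whose log2 differences lay between -0.15 and -0.03.

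**Figure D5:**
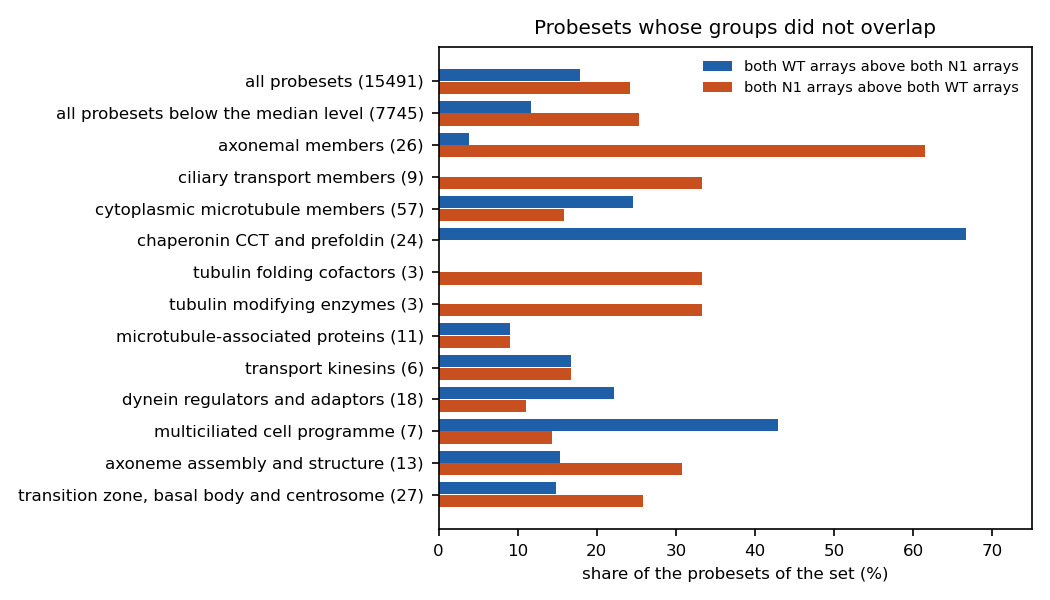
Share of the probesets of each set (in percent, with the number of probesets in brackets) with WT on top (both WT arrays higher than both N1 arrays) and with N1 on top. The axonemal members (61.5% with N1 on top) and the CCT and prefoldin list (66.7% with WT on top) have the longest bars, and all probesets (17.9% and 24.2%) and all probesets below the median level (11.7% and 25.3%) are shown for comparison.

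Other companion groups were small. Of 11 probesets of microtubule-associated proteins 1 had WT on top and 1 N1. Of these 11, 8 were below the median level, where the background was 11.7% and 25.3%. The 1 with N1 on top was of the spindle protein gene tpx2.S, with 2661 and 2406 in WT and 3640.3 and 3251 in N1. The 1 with WT on top was of the L copy of the same gene, with 92.1 and 112 in WT and 70.8 and 60.7 in N1. The brighter tpx2.L probeset had overlapping groups and a log2 difference of -0.04, so that the probesets of tpx2 did not agree. Of 6 transport kinesin probesets, 1 leaned towards WT and 5 towards N1, with a median log2 difference of -0.19. Of these 6, 5 were below the median level. There the background was 62.3% towards N1, against which numbers this small cannot be read. The kif5b.S probeset, for a kinesin-1 heavy chain, read 1143 and 1116 in WT and 879 and 823 in N1. A very dim probeset of klc1.S, for a kinesin light chain, read 9.37 and 4.91 in WT and 53.7 and 36.6 in N1. These separated the groups in opposite directions. The other klc1.S probeset, dimmer still, read 3.42 and 2.73 in WT and 3.34 and 3.36 in N1, so that its groups overlapped. Tubulin modifying enzymes were measured for 3 genes. The deacetylase sirt2.S read 487 and 289.6 in WT and 586 and 686 in N1, while hdac6.L and agbl5.L overlapped.

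Probesets of the same gene show how far a single reading can be trusted. Of 23 member genes read by more than 1 probeset, 15 leaned in 1 direction with all of them and 8 were split. Of 12 genes for which both copies were read, 7 leaned in 1 direction. For members at or above the median level the median absolute log2 difference between replicates was 0.16 in WT and 0.31 in N1, and for the dimmest 25% it was 0.91 and 0.75. The median standard error was 0.23 and 0.86, respectively. The dimmest readings were thus the least precise of the module, and of these 24 probesets 11 were axonemal and 11 cytoplasmic.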

How the data were processed

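Each of the 4 RNA samples was a pool of limbs that had been amplified by repeated in vitro transcription and hybridised to its own Affymetrix *Xenopus laevis* array. The deposited values are signal intensities that the authors computed with the MAS5 algorithm, scaled so that every array has the same trimmed mean (500.1 with 2% trimmed at each end). Versions of MAS5 and GCOS are not given in the sources used here. Of 15611 probesets, 120 controls were left out. Platform annotation gave 1 symbol to 9304 of the rest, several to 195 and none to 5992. Matching probesets with several symbols (2, of stmn2 and dynll1) were left out. The Entrez gene of all 92 members was in the RefSeq table of assembly Xenopus_laevis_v10.1, where 0 symbols differed.

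WT minus N1 was fitted on log2 signals, with nothing added, with limma 3.58.1 (lmFit, then eBayes with the trend option; R 4.3.3) over all 15491 probesets, with the Benjamini-Hochberg adjustment and a threshold of 0.05. Folds are ratios of mean linear signals. The SE and p-values of the fit are moderated: eBayes draws the spread of each probeset towards a trend fitted over all probesets. They therefore do not measure only the spread between the 2 pools per group of that probeset. The number of arrays limits their precision. Members with a limma p under 0.05, the brightest probeset of each family and other probesets of those genes were named with full statistics, and others for their role or after their values were seen. The members and lists were chosen with earlier results of these data known. The fit was tested on simulated data. Alternatives were no variance trend, filters at the median or 25th percentile of level, 16 or 64 added to the signals, a block for the replicate number, each array left out, quantile normalisation and median centring. Values for the axonemal and cytoplasmic groups apart were added after seeing the data.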

Additional observations from a re-analysis of the deposited data

How the results depend on the processing

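With 2 arrays a group and dim axonemal probesets, only large differences could pass, and detection of the dimmest transcripts is unknown. No setting gave a member an adjusted p under 0.05 except that the count higher in N1 was 0 to 1 over the fits without 1 array. Members with an unadjusted limma p under 0.05 as higher in WT (2 as reported) were 5 after quantile normalisation, 8 after median centring and 1 to 7 without 1 array (1 without either WT array, 7 without N1 replicate 2). As higher in N1 (5 as reported) they were 1 with the filter at the median level, 2 with that at the 25th percentile, 3 after quantile normalisation, 3 after median centring and 2 to 10 without 1 array (2 without WT replicate 2, 3 without N1 replicate 1, 10 without N1 replicate 2). Fewer probesets are tested under the filters. Over all probesets, 664 had such a p as higher in WT and 1057 as higher in N1 as reported. These counts were 773 and 883 after quantile normalisation, and 1028 and 762 after median centring. In each fit without 1 array, the counts over all probesets moved in the same directions as those of the members. The shifts were thus not particular to the members, and their cause was not tested. Quantile normalisation shifted the median of all probesets from -0.07 to 0.02, and median centring shifted it to 0.04. The median log2 difference over the members (-0.08) was 0.0197 after quantile normalisation, 0.0248 after median centring and -0.232 to -0.0197 without 1 array. That of the axonemal members (-0.48) was -0.058 with the filter at the median level, -0.22 with 64 added and -0.73 to -0.20 without 1 array. Both N1 arrays were on top in 16 of the 26 axonemal probesets. With the filter at the 25th percentile they were on top in 8 of the 15 that remained. Of all probesets without a filter, 24.2% had both N1 arrays on top. That of the cytoplasmic members (0.00) was 0.15 after quantile normalisation, 0.11 after median centring and -0.0611 to 0.0923 without 1 array.

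Of the 24 probesets named by rule, 9 turned their direction in some setting that can change it. The tuba5.S difference turned to 0.15 after quantile normalisation and 0.0374 after median centring, and that of ift57.S to 0.0734 after median centring. Without 1 array, signs turned for bbs5.L (-0.318 to 0.0281), tuba5.S (-0.35 to 0.21), dync1li1.L (-0.20 to 0.53), the brighter dynll1.S probeset (-0.53 to 0.16), tubgcp3.S (-0.052 to 0.612), ift57.S (-0.25 to 0.18), stmn1.S (-0.0208 to 0.0943), cfap20.L (-0.17 to 0.52) and dynll1.L (-0.23 to 0.25). The cause was not tested.

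The labels number the replicates alike in both groups but do not say whether equal numbers pair the samples. The differences between replicates 1 and 2 correlated with r = 0.03 over all probesets between WT and N1. With 1 such difference per group, this value cannot settle whether the samples are paired. With the replicate number as a block, 2 members had an unadjusted limma p under 0.05 as higher in WT and 4 as higher in N1, with 0 at an adjusted p under 0.05, while over all probesets the adjusted calls went from 2 to 57 in WT and from 17 to 143 in N1. The block left the named log2 differences unchanged.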
